A study of Mus musculus with 9 samples.

Results

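The T cell receptor is read in a bulk tissue through a small set of genes, most of which few other cells use. Described here are 9 of them out of 55453 genes in the counts table, taken by symbol. Trac, Cd3d, Cd3e, Cd3g and Cd247 encode parts of the receptor complex, and Lck, Zap70 and Lat carry its signal inward. Cd2 is an adhesion molecule of T cells, natural killer cells and, in mice, B cells. The tissue was the whole aorta of C57BL/6J mice, with 9 mice sequenced, 3 of each genotype. Itga8-Cre mice carry Itga8-CreERT2, Myh11-Cre mice carry Myh11-CreERT2, and Wild Type mice are labelled with neither. CreERT2 is a Cre recombinase that enters the nucleus after tamoxifen, and the gene named in front of it, for integrin alpha 8 or for smooth muscle myosin, is the source of its expression pattern in smooth muscle. Neither sex, age, Cre copy number nor tamoxifen treatment is in the labels, which also name no target allele that Cre would cut. The series set the new Cre mouse beside the established Myh11 line, so the immune genes were not its stated subject.

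A T cell recognises antigen through the variable chains of its receptor, which cannot signal on their own. They sit in the membrane with the CD3 proteins and the zeta chain, whose tails are phosphorylated by the kinase Lck and then bind the kinase Zap70, which in turn phosphorylates the scaffold Lat. T cells are known residents of the outer layer of arteries and of the fat around them, and developing T cells make most of the same receptor genes while they still express Rag1 and Dntt, the genes that cut and extend antigen receptor genes in immature lymphocytes.

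Total counts per library ran from 31419238 to 42497543, and the 9 genes together took 4313 to 11867 counts of a library, so counting error was small beside the differences between mice. All 9 genes passed the filter on low counts, which left 19412 genes for testing, and none was at 0 in any library. Levels are in CPM, for which each library's counts were divided by its total after TMM scaling. The libraries held smooth muscle transcripts throughout, with Myh11 at 460.5 to 1371 CPM. Itga8 had 54.1, 76.5 and 62.9 CPM in Itga8-Cre mice, 72.4, 298 and 300 CPM in Myh11-Cre mice and 475, 147 and 196 CPM in Wild Type mice. Rag1 separated libraries of the same genotype: it had 0.629, 0.443 and 477 CPM in Itga8-Cre 1, 2 and 3, 274, 233 and 44.6 CPM in Myh11-Cre 1, 2 and 3, and 50.7, 130.5 and 15.95 CPM in Wild Type 1, 2 and 3. Libraries Itga8-Cre 1 and 2 therefore stood apart from the other 7, and Itga8-Cre 3 had the most Rag1 of all, so results that rest on Itga8-Cre 3 are given with and without it.

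Positions are those of GENCODE M21 (GRCm38). Trac (ENSMUSG00000076928.5), the constant region of the receptor alpha chain, is at chr14:54220521-54224206. Cd3g (ENSMUSG00000002033.14, chr9:44969572-44980431, minus strand), Cd3d (ENSMUSG00000032094.8, chr9:44981786-44987339, plus strand) and Cd3e (ENSMUSG00000032093.7, chr9:44998740-45009627, minus strand) encode the gamma, delta and epsilon chains of CD3 and lie side by side. Cd3g and Cd3d are read away from each other from starts 1355 bases apart, and the ends of Cd3d and Cd3e are 11401 bases apart. Cd247 (ENSMUSG00000005763.15), the zeta chain, is at chr1:165788681-165877277, where it overlaps Pou2f1 on the opposite strand. Zap70 (ENSMUSG00000026117.10) is on the same chromosome at chr1:36761798-36782818. Lck (ENSMUSG00000000409.14) is at chr4:129548344-129573641, Lat (ENSMUSG00000030742.7) at chr7:126363824-126369570 and Cd2 (ENSMUSG00000027863.8) at chr3:101275899-101287939. No source used here states whether counting used strand, and reads of Cd247 and Pou2f1, and of Cd3e and its antisense gene model Gm48719, cannot be told apart where they overlap. In this annotation Cd3e also overlaps Gm48720, and Cd247 overlaps Gm16565, on the same strand, which no strand setting would separate.

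Promoter windows of 300 bases, from 250 before to 50 after a start, were found in RefSeq (GRCm38.p6) for 7 of the 9 genes. Those of the CD3 cluster are shown because 3 neighbouring genes could be compared within each library, and both Lck windows because Lck varied most of all between the mice. Lck is known to have a distal promoter used in thymocytes and mature T cells and a proximal promoter used in thymocytes, and the 2 starts here are 15269 bases apart. Sequences run 5′ to 3′ on the gene's own strand, and capitals mark matches, on either strand, to TGTGGT (Runx factors), AGGAAG (Ets factors), CAGNTG (E-box proteins), AGATAA (zinc finger factors of the GATA family) or TTCAAAG (Tcf1 and Lef1).
Cd3g, chr9:44980382-44980681, minus strand: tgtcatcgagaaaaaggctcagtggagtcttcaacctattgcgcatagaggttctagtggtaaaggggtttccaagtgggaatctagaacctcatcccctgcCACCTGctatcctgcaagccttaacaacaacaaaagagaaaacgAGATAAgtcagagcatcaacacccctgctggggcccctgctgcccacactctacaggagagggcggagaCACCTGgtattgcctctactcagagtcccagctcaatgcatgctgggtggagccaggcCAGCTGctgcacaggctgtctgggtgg
Cd3d, chr9:44981536-44981835, plus strand: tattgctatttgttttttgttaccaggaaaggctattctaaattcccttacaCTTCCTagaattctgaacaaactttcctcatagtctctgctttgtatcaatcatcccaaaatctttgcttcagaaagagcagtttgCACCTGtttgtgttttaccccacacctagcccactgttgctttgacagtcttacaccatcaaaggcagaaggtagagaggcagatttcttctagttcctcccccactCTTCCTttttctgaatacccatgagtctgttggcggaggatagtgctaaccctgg
Cd3e, chr9:45009562-45009861, minus strand: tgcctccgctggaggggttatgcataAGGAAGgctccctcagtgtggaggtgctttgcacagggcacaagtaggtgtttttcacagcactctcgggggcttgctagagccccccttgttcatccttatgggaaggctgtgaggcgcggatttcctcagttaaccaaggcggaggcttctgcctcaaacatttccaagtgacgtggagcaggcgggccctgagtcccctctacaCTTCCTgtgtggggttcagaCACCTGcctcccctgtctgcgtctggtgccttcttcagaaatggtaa
Lck, upstream start, chr4:129573592-129573891, minus strand: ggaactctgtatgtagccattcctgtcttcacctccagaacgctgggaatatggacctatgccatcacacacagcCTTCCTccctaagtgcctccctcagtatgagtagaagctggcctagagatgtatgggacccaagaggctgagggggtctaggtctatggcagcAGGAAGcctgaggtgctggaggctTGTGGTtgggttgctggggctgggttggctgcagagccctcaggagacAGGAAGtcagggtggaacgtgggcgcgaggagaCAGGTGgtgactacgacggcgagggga
Lck, downstream start, chr4:129558323-129558622, minus strand: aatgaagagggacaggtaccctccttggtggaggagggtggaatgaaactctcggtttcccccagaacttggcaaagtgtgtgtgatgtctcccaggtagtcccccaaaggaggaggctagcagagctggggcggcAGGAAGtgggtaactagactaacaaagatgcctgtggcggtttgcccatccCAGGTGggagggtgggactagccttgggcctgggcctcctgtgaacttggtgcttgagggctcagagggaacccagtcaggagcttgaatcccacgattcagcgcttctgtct

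Over the 10 windows of these genes (3 of Zap70, 2 of Lck, 1 each of the other 5), 9 held CAGNTG, which 51.4% of 32851 windows of all genes held. AGGAAG was in 8 of the 10 and in 35.4% of all windows. TGTGGT was in 3 of the 10, among them the upstream but not the downstream window of Lck, and in 16.8% of all windows. AGATAA was in 1 of the 10, the Cd3g window, and in 11.2% of all windows, and TTCAAAG was in 0 of the 10 and in 5.14% of all windows. The Cd3g window held 3 E-boxes and 0 Ets letters, while the Cd3d and Cd3e windows held 1 E-box and 2 Ets matches each. Counts per gene cannot say which of the Lck starts was used.

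The receptor chain gene Trac had 20.6, 36.3 and 40.1 CPM in Itga8-Cre 1, 2 and 3, 23.3, 17.2 and 20.9 CPM in Myh11-Cre 1, 2 and 3, and 18.7, 12.1 and 20.8 CPM in Wild Type 1, 2 and 3. Itga8-Cre 2 and 3 were the highest of all libraries, and Itga8-Cre 1 lay inside the range of the others. In RNA of a whole vessel, fewer T cells and less RNA per T cell cannot be told apart, here and in every comparison that follows.

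The CD3 chains bind the receptor chains and carry the motifs that Lck phosphorylates. Cd3e had 10.6, 16.8 and 27.8 CPM in Itga8-Cre mice, 18.2, 13.6 and 9.84 CPM in Myh11-Cre mice and 14.0, 14.5 and 12.05 CPM in Wild Type mice. Cd3d had 8.29, 14.4 and 22.5 CPM in Itga8-Cre mice, 15.4, 10.02 and 7.50 CPM in Myh11-Cre mice and 9.50, 7.69 and 9.58 CPM in Wild Type mice. Cd3g had 14.4, 24.8 and 39.2 CPM in Itga8-Cre mice, 23.6, 17.4 and 13.5 CPM in Myh11-Cre mice and 15.2, 12.3 and 14.8 CPM in Wild Type mice. For all 3 chains Itga8-Cre 3 was the highest library and the 3 Wild Type mice lay close together, while each Cre group overlapped Wild Type. The zeta chain gene Cd247 had the same layout, with 8.38, 18.4 and 34.8 CPM in Itga8-Cre mice, 22.7, 18.8 and 10.5 CPM in Myh11-Cre mice and 14.5, 12.2 and 13.0 CPM in Wild Type mice. Its lowest and highest libraries of all 9 were both Itga8-Cre.

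Lck, the kinase that starts the signal, varied most. It had 24.0, 45.1 and 102.6 CPM in Itga8-Cre mice, 55.0, 44.3 and 27.9 CPM in Myh11-Cre mice and 28.8, 36.2 and 29.4 CPM in Wild Type mice. The highest library was 4.28 times the lowest, against 2.54 times for Zap70, the steadiest of the 9 genes. Zap70, the kinase that docks on phosphorylated CD3 and zeta tails, had 8.35, 12.9 and 19.4 CPM in Itga8-Cre mice, 9.82, 8.56 and 7.84 CPM in Myh11-Cre mice and 9.56, 7.64 and 9.42 CPM in Wild Type mice. Only Itga8-Cre 2 and 3 were above 10 CPM. Lat, the membrane scaffold that gathers the downstream enzymes, had 14.5, 23.0 and 42.8 CPM in Itga8-Cre mice, 27.2, 20.9 and 15.5 CPM in Myh11-Cre mice and 16.6, 19.6 and 14.3 CPM in Wild Type mice.

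Cd2, which binds CD48 on neighbouring cells, was the exception to the order of the libraries. It had 14.2, 27.2 and 20.7 CPM in Itga8-Cre mice, 16.6, 8.44 and 13.0 CPM in Myh11-Cre mice and 15.5, 9.02 and 14.9 CPM in Wild Type mice. Its highest library was Itga8-Cre 2, where the other 8 genes were highest in Itga8-Cre 3. The mean log2 level of the B cell markers was also highest in Itga8-Cre 2, though their sum was highest in Myh11-Cre 1. The part of B cells in the Cd2 level was not tested. Summed over the 9 genes, the level was 123, 219 and 350.0 CPM in Itga8-Cre 1, 2 and 3, 212, 159 and 127 CPM in Myh11-Cre 1, 2 and 3, and 142, 131 and 138 CPM in Wild Type 1, 2 and 3.

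**Figure D1:**
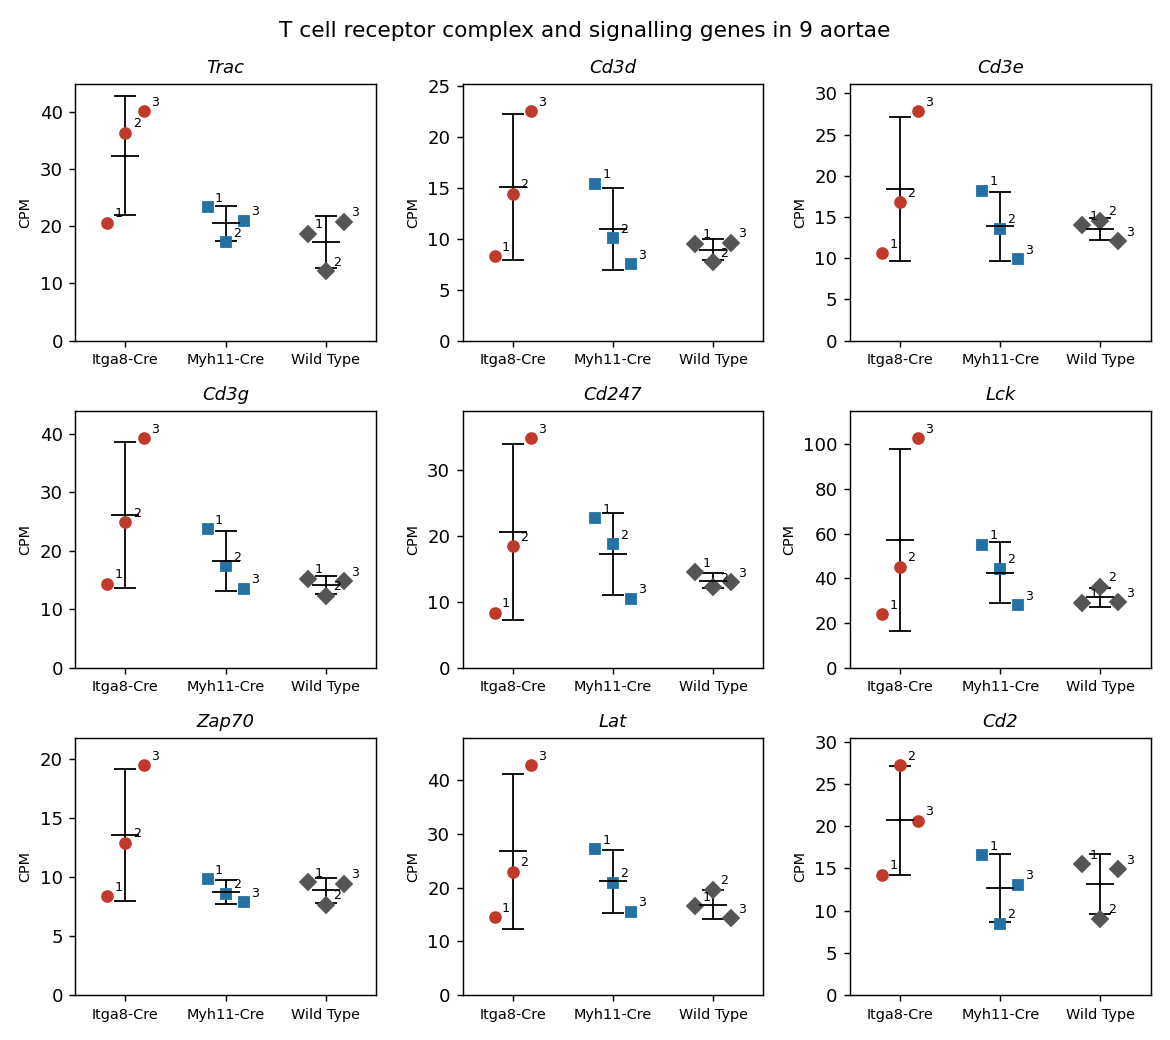
Level of each of the 9 genes in CPM (vertical axes from 0, linear) in every mouse, with Itga8-Cre left, Myh11-Cre in the middle and Wild Type right. Points are single libraries and bars are group means with SD (n = 3). Itga8-Cre spreads widest for each gene, with Lck between 24.0 and 102.6 CPM, and every Cre group overlaps Wild Type.

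Per kilobase of exon, Trac was the most abundant at 24.95 ± 9.67 CPM per kb (SD, n = 9 libraries), above Lck in all 9 libraries. Lck followed at 14.9 ± 8.30 CPM per kb and was above Cd2 in 8 libraries. Cd2 at 8.91 ± 3.31 and Lat at 7.80 ± 3.27 CPM per kb were not ordered beyond their spread, since Cd2 was above Lat in 5 of 9 libraries. Below them came Cd3d at 6.42 ± 2.72 and Cd3g at 5.96 ± 2.63 CPM per kb, with Lat above Cd3d and Cd3d above Cd3g in 8 libraries each. Cd3e at 3.74 ± 1.33, Zap70 at 3.47 ± 1.25 and Cd247 at 3.20 ± 1.51 CPM per kb closed the order. Cd3g was above Cd3e in all 9 libraries, Cd3e above Zap70 in 5 and Zap70 above Cd247 in 6. These levels use the exon length of the annotation and not the transcript actually made.

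In Itga8-Cre against Wild Type mice, the mean of all 9 genes was higher in Itga8-Cre, by 1.36 times for Cd3e to 1.88 times for Trac, and no gene passed the test. Trac averaged 32.3 ± 10.3 CPM in Itga8-Cre mice, against 17.2 ± 4.50 CPM in Wild Type mice (SD, n = 3 each), a log2 fold change of 0.91 with a standard error of 0.28. Its p in edgeR's quasi-likelihood test was 0.0103, and 0.699 after Benjamini-Hochberg adjustment over the 19412 genes. Cd3g averaged 26.1 ± 12.5 CPM in Itga8-Cre mice, against 14.1 ± 1.58 CPM in Wild Type mice, with a log2 fold change of 0.89 ± 0.34 (SE), an edgeR p of 0.0292 and an adjusted p of 0.699. The zeta chain, the kinases and Lat had log2 fold changes of 0.61 to 0.86, with Lck at 57.3 ± 40.7 CPM in Itga8-Cre mice, against 31.5 ± 4.09 CPM in Wild Type mice. Cd2 averaged 20.7 ± 6.49 CPM in Itga8-Cre mice, against 13.1 ± 3.59 CPM in Wild Type mice.

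The edgeR test called 0 of the 9 genes in this comparison, as it called 0% of all genes, and the 9 adjusted p-values lay between 0.699 and 0.736. Before adjustment, 2 of the 9 genes had a p under 0.05 with higher values, where 3.97% of all genes did and 2.81% had lower values. DESeq2 called 0 of the 9 genes and 0.166% of the genes it tested, with a lowest adjusted p among the 9 of 0.31, and limma voom called 0. For 0 of the 9 genes did all 3 Itga8-Cre mice lie above all 3 Wild Type mice, where 5.76% of all genes did so and 5.37% lay below. The median log2 fold change of the 9 genes was 0.67, beside 0.04 over all genes tested, of which 55.9% were above 0.

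Smooth muscle markers went the other way: the 7 genes summed to 1150, 1491 and 1318 CPM in Itga8-Cre mice, 896, 2297 and 2359 CPM in Myh11-Cre mice and 3202, 1904 and 1840 CPM in Wild Type mice. All Itga8-Cre sums lay below all Wild Type sums, with 7 of 7 log2 fold changes below 0 and a median of -0.77. EdgeR called 0 of the 7, and 2 had an unadjusted p under 0.05, where 2.81% of all genes had one with lower values. Without Itga8-Cre 3 the median was -0.76, and 0 of the 7 had such a p. Their part in the levels of the T cell genes was not tested.

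The size of the difference in the 9 genes rested on which Itga8-Cre mouse was in. Without Itga8-Cre 3 the median of the 9 genes was 0.25, and without Itga8-Cre 1 it was 1.01. An unadjusted edgeR p under 0.05 was left for 1 of the 9 genes without Itga8-Cre 3, and the share over all genes was not computed for that fit. The genes parted when Itga8-Cre 3 was left out: Trac kept a log2 fold change of 0.71, Cd2 of 0.65 and Cd3g of 0.46, while Lat had 0.15, Lck 0.12, Cd247 0.01 and Cd3e 0.01. With Rag1 as a covariate, chosen after the data were seen, the 9 log2 fold changes ran from 0.61 for Cd2 to 1.19 for Lck and the edgeR adjusted p-values from 0.52 to 0.634. That fit puts 1 slope per gene through all 9 libraries, and Itga8-Cre 1 and 2 lie far from the rest at 0.629 and 0.443 CPM of Rag1. Its fold changes therefore lean on these mice of the tested group, and the fit cannot separate Rag1 from genotype.

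In Myh11-Cre against Wild Type mice, the 9 genes differed by less than the spread between mice. Lck averaged 42.4 ± 13.7 CPM in Myh11-Cre mice, against 31.5 ± 4.09 CPM in Wild Type mice, the highest log2 fold change of the 9 at 0.43 ± 0.47 (SE). Cd3e averaged 13.9 ± 4.18 CPM in Myh11-Cre mice, against 13.5 ± 1.31 CPM in Wild Type mice. Zap70 averaged 8.74 ± 1.00 CPM in Myh11-Cre mice, against 8.87 ± 1.07 CPM in Wild Type mice, and Cd2 12.7 ± 4.09 CPM in Myh11-Cre mice, against 13.1 ± 3.59 CPM in Wild Type mice. Of the 9 log2 fold changes, 7 were above 0 and 2 below, with a median of 0.30 beside 0.01 over all genes, of which 50.9% were above 0.

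The edgeR adjusted p-values of the 9 genes in this comparison ran from 0.602 to 0.973, and 0 of 9 were called, as were 0% of all genes. Before adjustment 0 of the 9 had a p under 0.05, where 6.93% of all genes had one with higher values and 9.48% with lower values. DESeq2 called 4.44% of the genes it tested and 0 of the 9, with a lowest adjusted p among them of 0.614. The groups overlapped for each of the 9 genes, where 11.3% of all genes lay wholly above and 14.7% wholly below Wild Type. Leaving out Myh11-Cre 1 and 2 together with Itga8-Cre 3, the 3 libraries with the most Rag1, gave a median of -0.17, which sets 1 Myh11-Cre mouse, Myh11-Cre 3, against the 3 Wild Type mice. Leaving out Myh11-Cre 3 alone moved it to 0.51 and leaving out Myh11-Cre 1 alone to 0.12.

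In Itga8-Cre against Myh11-Cre mice, all 9 genes had a higher mean in Itga8-Cre, with log2 fold changes from 0.25 for Cd247 to 0.71 for Cd2 and a median of 0.46 beside 0.01 over all genes, of which 51.3% were above 0. Trac averaged 32.3 ± 10.3 CPM in Itga8-Cre mice, against 20.5 ± 3.08 CPM in Myh11-Cre mice, with an edgeR p of 0.0422 and an adjusted p of 0.521. Zap70 averaged 13.6 ± 5.57 CPM in Itga8-Cre mice, against 8.74 ± 1.00 CPM in Myh11-Cre mice, with an edgeR p of 0.0465 and an adjusted p of 0.521. These were the 2 genes of the 9 with an unadjusted p under 0.05 and higher values, where 7.64% of all genes had one, and 1.83% with lower values. EdgeR called 0 of the 9 and 0% of all genes, limma voom called 0, and DESeq2 called 0 of the 9 and 0.109% of the genes it tested.

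No gene of the 9 had its 3 Itga8-Cre mice all above the 3 Myh11-Cre mice, where 9.65% of all genes did and 3.07% lay below. Without Itga8-Cre 3 the median was 0.03, and the log2 fold changes of Cd247, Lck, Lat and Cd3e became -0.39, -0.32, -0.20 and -0.04, whereas Cd2 and Trac stayed at 0.69 and 0.46. An unadjusted edgeR p under 0.05 was left for 0 of the 9 genes without Itga8-Cre 3. Without Itga8-Cre 1 the median was 0.80. The 3 comparisons share their groups, so their fold changes are not independent of each other.

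**Figure D2:**
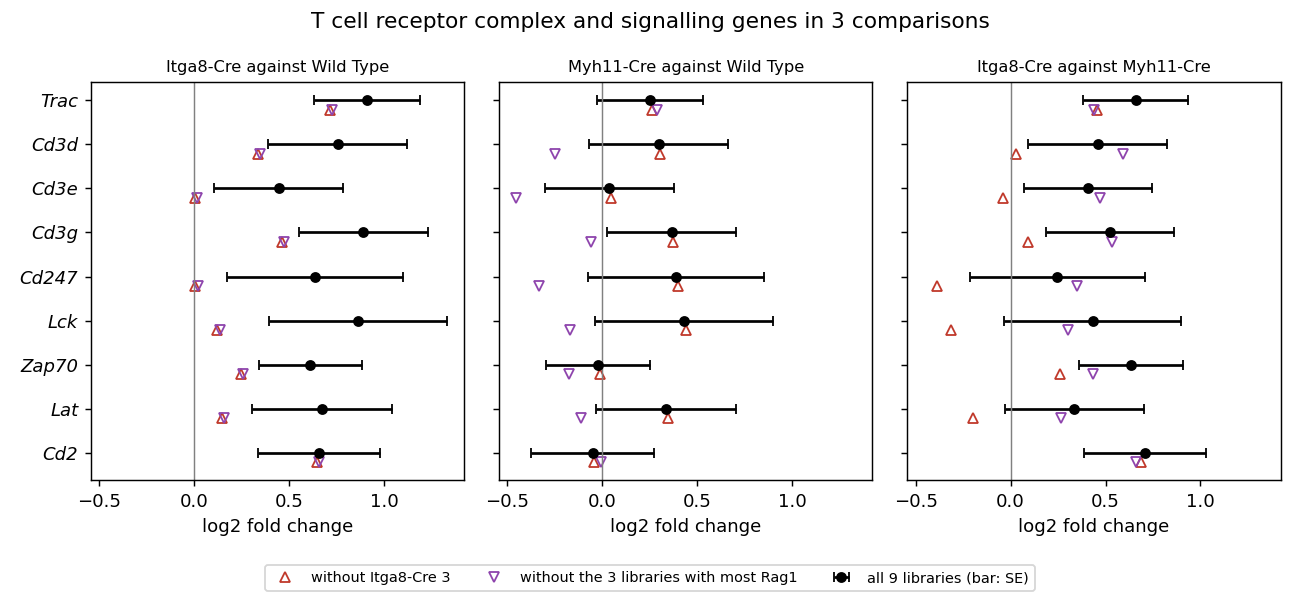
Log2 fold change (edgeR) of each of the 9 genes in the 3 comparisons, with bars of 1 standard error and a line at 0. Red triangles leave out Itga8-Cre 3 and purple triangles leave out the 3 libraries with the most Rag1, so that Myh11-Cre stands for 1 mouse there. Itga8-Cre against Wild Type runs from 0.44 to 0.91, Myh11-Cre against Wild Type from -0.05 to 0.43 and Itga8-Cre against Myh11-Cre from 0.25 to 0.71, and none of the 27 values passed an adjusted p of 0.05.

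Ratios of these genes within a library do not depend on the library total, and they showed how far the 9 genes moved as a block. Lat to Cd3e was the steadiest, at 1.18 to 1.58 across the 9 libraries. Trac to Cd3e ran from 0.835 to 2.16 and Cd2 to Cd3e from 0.62 to 1.62, the widest of the 8. Both were high in the same 4 libraries, Itga8-Cre 1 and 2, Myh11-Cre 3 and Wild Type 3, which had the least Rag1. Trac to Cd3e was 1.95, 2.16 and 1.44 in Itga8-Cre mice, 1.28, 1.26 and 2.12 in Myh11-Cre mice and 1.34, 0.835 and 1.72 in Wild Type mice. Lck to Cd3e was 2.27, 2.69 and 3.69 in Itga8-Cre mice, 3.02, 3.26 and 2.84 in Myh11-Cre mice and 2.06, 2.49 and 2.44 in Wild Type mice.

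Of 36 ratio comparisons (12 ratios in 3 comparisons), 5 had groups that did not overlap, all against Wild Type. Groups of 3 mice that do not differ separate fully with a probability of 0.1. No share over ratios of other gene pairs was computed. Cd3g to Cd3e was 1.36, 1.48 and 1.41 in Itga8-Cre mice, 1.30, 1.28 and 1.37 in Myh11-Cre mice and 1.09, 0.845 and 1.23 in Wild Type mice. Both Cre groups thus lay above Wild Type for a pair of genes of the same cluster, by 0.44 and 0.34 on the log2 scale. Lat to Cd3e was 1.37, 1.37 and 1.54 in Itga8-Cre mice, 1.49, 1.54 and 1.58 in Myh11-Cre mice and 1.18, 1.35 and 1.18 in Wild Type mice, a log2 difference of 0.20 for Itga8-Cre and 0.31 for Myh11-Cre. The fifth was Lck to Cd3e in Myh11-Cre mice, 0.39 above Wild Type. By the exact permutation test (two-sided), p was 0.1 for each of the 5, which is the least that groups of 3 mice can give, and 0.6 after adjustment over the 36. Cd3e stood at the bottom of each of these ratios and both Cre groups shared the same Wild Type mice. Without Wild Type 2, Cd3g to Cd3e differed by 0.29 in Itga8-Cre and by 0.19 in Myh11-Cre mice.

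Rag1, which marks immature lymphocytes, was set beside each of the 9 genes. Itga8-Cre 1 and 2 lay far apart from the rest in Rag1, so no r over all 9 libraries is given, and the 10 CPM limit was set after the data were seen. Over the 7 libraries with Rag1 above it, the level of Lat followed that of Rag1 (log2 scale) with a Pearson r of 0.89, an exact permutation p of 0.0004 and an adjusted p of 0.0067 over 17 relations. Spearman's rho was 1.0, with an exact permutation p of 0.0004, the smallest that 7 libraries allow, and an adjusted p of 0.0067. Without Itga8-Cre 3 and Wild Type 3, the libraries farthest from the median of Rag1, r was 0.93 over 5 libraries. Lck had an r of 0.86 (exact permutation p = 0.0028, adjusted p = 0.0236) and a rho of 0.89 (exact permutation p = 0.0123, adjusted p = 0.105), and r was 0.97 over the 5 libraries. Each genotype gave only 1 to 3 of the 7 libraries, too few for a value within a genotype. The permutation moved libraries freely across genotypes, so these p-values account for neither genotype nor the choice of the limit. Itga8-Cre 2, left out, went against the relation: with 0.443 CPM of Rag1 it had more Lat (23.0 CPM) and more Lck (45.1 CPM) than 5 of the 7.

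Trac had an r with Rag1 of 0.35 and a rho of 0.36, and Cd2 an r of 0.05 and a rho of 0.39, with exact permutation p-values of 0.396 or more. The differences between the genes in r were not tested. The CD3 chains and Cd247 had r of 0.68 to 0.80 with adjusted p of 0.0978 or more, and Zap70 an r of 0.51, by the same exact permutation test. For the ratios, Cd2 to Cd3e had an r of -0.75 (exact permutation p = 0.0595, adjusted p = 0.148) and Lck to Cd3e an r of 0.74 (exact permutation p = 0.0639, adjusted p = 0.148), so neither passed.

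Itga8-Cre 1 and 2 showed the 9 genes with almost no Rag1. With Rag1 at 0.629 and 0.443 CPM, Dntt at 0.829 and 1.69 CPM and Foxn1, the defining factor of thymic epithelium, at 0 in both, they still held 123 and 219 CPM of the 9 genes. Cd3e to Rag1 was 16.8 and 37.9 in these libraries, against 0.0584 in Itga8-Cre 3, 0.0584 to 0.221 in Myh11-Cre mice and 0.111 to 0.755 in Wild Type mice. The whole immature thymocyte list (11 genes) summed to 76.3, 61.8 and 919.8 CPM in Itga8-Cre mice, 620, 486 and 169.6 CPM in Myh11-Cre mice and 155, 304 and 99.7 CPM in Wild Type mice, with 2 of 11 genes at 0 in Itga8-Cre 2 and 0 elsewhere. Thymic epithelial markers (10 genes) summed to 10.1, 14.7 and 166 CPM in Itga8-Cre mice, 84.1, 171 and 37.1 CPM in Myh11-Cre mice and 26.0, 44.1 and 10.1 CPM in Wild Type mice. The part of both lists in the comparisons was not tested, since the Rag1 covariate leans on Itga8-Cre 1 and 2 and leaving out libraries removes whole mice.

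**Figure D3:**
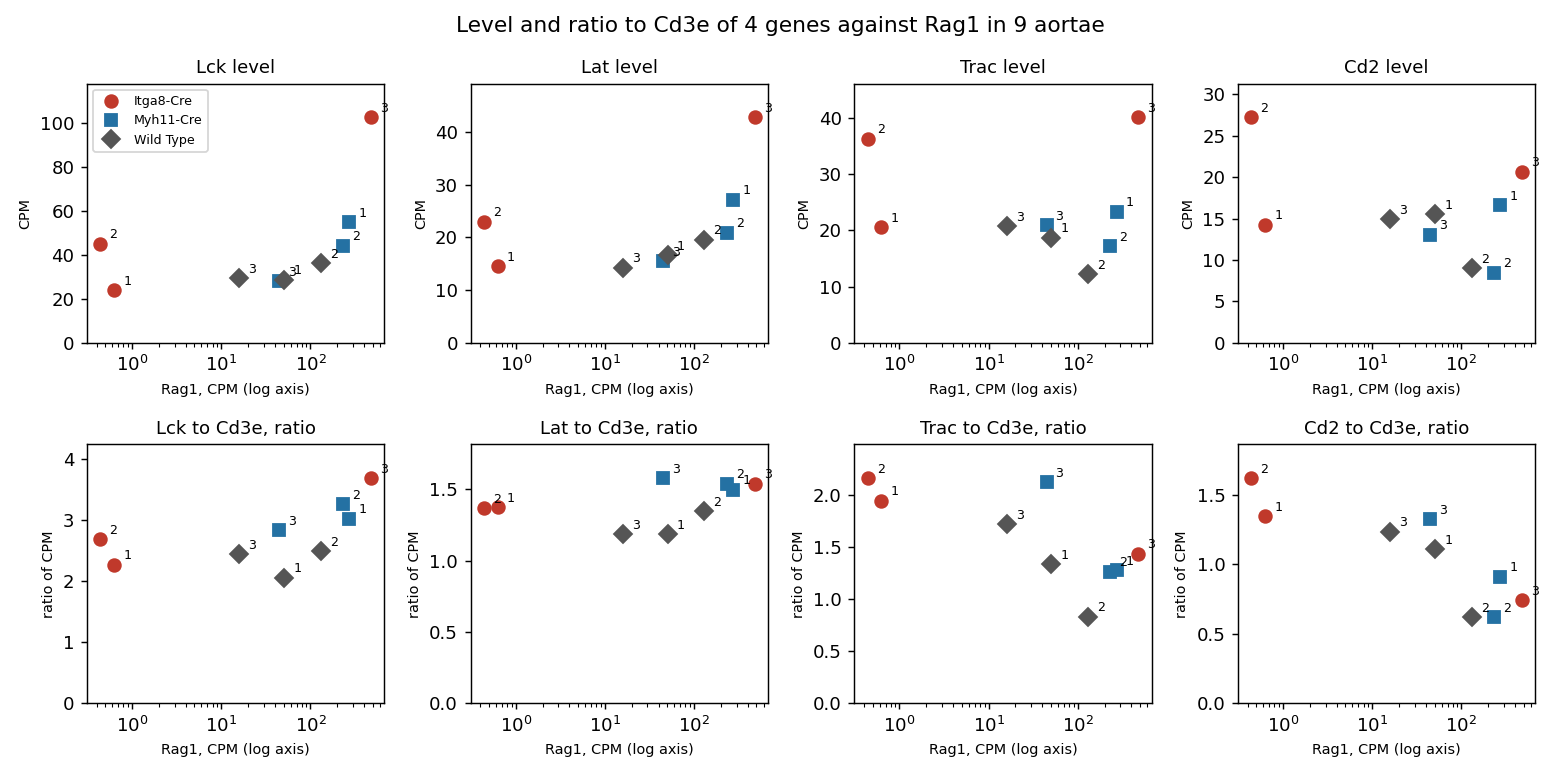
Level in CPM (top row) and ratio to Cd3e (bottom row) of 4 of the genes on linear vertical axes from 0, against Rag1 in CPM on a logarithmic axis, with 1 point per library, its colour and shape for genotype and its number for the mouse. Itga8-Cre 1 and 2 lie far left, at 0.629 and 0.443 CPM of Rag1. Among the other 7 libraries r with Rag1 is 0.89 for Lat, 0.86 for Lck, 0.35 for Trac and 0.05 for Cd2.

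Partners of the receptor, co-receptors and other surface molecules were measured by 15 of 17 listed genes. Their sum was 385, 747 and 1063 CPM in Itga8-Cre mice, 654, 504 and 379 CPM in Myh11-Cre mice and 430, 399 and 444 CPM in Wild Type mice, so that Itga8-Cre 3 was the highest and Itga8-Cre 1 below all Wild Type mice. In Itga8-Cre against Wild Type mice 15 of 15 log2 fold changes were above 0, with a median of 0.76, and 0 passed the edgeR test. Without Itga8-Cre 3, 10 of 15 were above 0, with a median of 0.23. In Myh11-Cre against Wild Type 11 of 15 were above 0, with a median of 0.38, and in Itga8-Cre against Myh11-Cre 14 of 15, with a median of 0.33, which was -0.21 without Itga8-Cre 3. With all 9 libraries, 55.9%, 50.9% and 51.3% of all genes were above 0 in these 3 comparisons, a share to set beside each list that follows. Ptprc, the phosphatase CD45 of all white blood cells, had 239, 488 and 455 CPM in Itga8-Cre mice, 281, 217 and 219 CPM in Myh11-Cre mice and 240, 206 and 273 CPM in Wild Type mice, highest in Itga8-Cre 2. It was the largest single part of the sums above in every library, so they do not read the receptor or T cells alone. Cd8a, the co-receptor for class I molecules, had 16.4, 30.2 and 113 CPM in Itga8-Cre mice, 66.7, 52.0 and 23.0 CPM in Myh11-Cre mice and 29.7, 37.4 and 22.8 CPM in Wild Type mice. Cd4 to Cd8a was 1.17, 1.05 and 0.681 in Itga8-Cre mice, 0.729, 0.688 and 0.982 in Myh11-Cre mice and 0.877, 0.815 and 1.14 in Wild Type mice, lowest in Itga8-Cre 3 and highest in Itga8-Cre 1. Trbc1 and Trbc2, the beta chain constant regions, are near-identical and their split is uncertain, with 10.9, 21.0 and 69.5 CPM of Trbc1 in Itga8-Cre mice, 42.2, 32.8 and 14.6 CPM in Myh11-Cre mice and 16.8, 18.1 and 13.9 CPM in Wild Type mice. Within Itga8-Cre mice Trbc1 thus spanned 10.9 to 69.5 CPM where Trac spanned 20.6 to 40.1 CPM.

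Of 24 further kinases and adaptors of the pathway, 22 had log2 fold changes above 0 in Itga8-Cre against Wild Type mice (median 0.47), 13 in Myh11-Cre against Wild Type mice (median 0.07) and 23 in Itga8-Cre against Myh11-Cre mice (median 0.40). None passed the edgeR test, and 5, 0 and 9 of them had an unadjusted p under 0.05, all with higher values. Over all genes, 3.97%, 6.93% and 7.64% had such a p with higher values in the 3 comparisons. Without Itga8-Cre 3 the medians were 0.26 in Itga8-Cre against Wild Type, with 20 of 24 above 0, and 0.17 in Itga8-Cre against Myh11-Cre, with 17 of 24. Those with an unadjusted p under 0.05, in either direction, were then 1, 0 and 3 of 24 in the 3 comparisons. The share over all genes was not computed for that fit. Vav1, an exchange factor that binds phosphorylated adaptors, had 28.7, 44.4 and 49.4 CPM in Itga8-Cre mice, 32.2, 26.6 and 25.4 CPM in Myh11-Cre mice and 28.2, 23.9 and 26.9 CPM in Wild Type mice. Its 3 Itga8-Cre mice lay above the 3 Wild Type mice (log2 fold change 0.63, edgeR adjusted p = 0.699). Fyn, a relative of Lck found in many tissues, averaged 38.3 ± 6.56 CPM in Itga8-Cre mice, against 28.7 ± 0.95 CPM in Myh11-Cre mice.

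The 20 inhibitors of receptor signalling had medians of 0.45 in Itga8-Cre against Wild Type, -0.04 in Myh11-Cre against Wild Type and 0.42 in Itga8-Cre against Myh11-Cre, with 19, 8 and 20 of 20 above 0. Without Itga8-Cre 3 the medians against Wild Type and against Myh11-Cre were 0.30 and 0.33, with 17 and 16 of 20 above 0. None passed the edgeR test, and before adjustment 6 had a p under 0.05 with higher values in the first comparison, 1 with lower values in the second and 9 with higher values in the last. The shares of all genes with such a p in the same directions were 3.97%, 9.48% and 7.64%. Without Itga8-Cre 3, 2, 2 and 5 of the 20 had an unadjusted p under 0.05 in either direction, with no share over all genes computed. Dok2, an adaptor that restrains kinase signalling in blood cells, had 10.7, 10.3 and 12.9 CPM in Itga8-Cre mice, 7.31, 9.43 and 6.17 CPM in Myh11-Cre mice and 6.66, 7.51 and 6.14 CPM in Wild Type mice. Its Itga8-Cre mice lay above both other groups without overlap, at edgeR adjusted p-values of 0.699 and 0.521. Ubash3b, a phosphatase that acts on Zap70 and its relative Syk, had 13.1, 19.1 and 12.2 CPM in Itga8-Cre mice, 9.82, 9.24 and 8.39 CPM in Myh11-Cre mice and 12.5, 13.2 and 16.9 CPM in Wild Type mice. All 3 Myh11-Cre mice lay below all Wild Type mice (log2 fold change -0.63, edgeR adjusted p = 0.225). Csk, the kinase that switches Lck off, averaged 71.95 ± 11.4 CPM in Itga8-Cre mice, against 50.02 ± 4.96 CPM in Myh11-Cre mice (edgeR adjusted p = 0.521).

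Other white blood cells differed between the mice beside the T cell genes. B cell markers had a median log2 fold change of 0.83 in Itga8-Cre against Wild Type, with 14 of 14 above 0 and 0 called by edgeR, and of 0.78 without Itga8-Cre 3, again with 14 of 14 above 0. In Itga8-Cre against Myh11-Cre the B cell median was 0.93, with 13 of 14 above 0 and 0 called by edgeR, and 0.89 without Itga8-Cre 3, again with 13 of 14. In Myh11-Cre against Wild Type it was -0.13, with 6 of 14 above 0. Myeloid markers (14 genes) summed to 984, 1140 and 610.3 CPM in Itga8-Cre mice, 441, 1125 and 665 CPM in Myh11-Cre mice and 527, 416 and 558 CPM in Wild Type mice. Among natural killer cell markers, the defining receptors Ncr1 and Klrb1c had 0.429 to 1.17 CPM and 0.493 to 0.948 CPM across the 9 libraries. Ncr1 had 0.429, 0.940 and 0.472 CPM in Itga8-Cre mice, 0.766, 0.462 and 0.729 CPM in Myh11-Cre mice and 0.695, 0.582 and 1.17 CPM in Wild Type mice. Klrd1, a receptor chain of natural killer cells and some CD8 T cells, had 2.49, 4.87 and 4.25 CPM in Itga8-Cre mice, 1.72, 1.92 and 1.28 CPM in Myh11-Cre mice and 1.61 to 2.69 CPM in Wild Type mice. It was 1.24 higher on the log2 scale in Itga8-Cre than in Myh11-Cre mice, without overlap (edgeR adjusted p = 0.521), and 0.77 higher than in Wild Type mice (edgeR adjusted p = 0.699). Nkg7, a granule protein of both cell types, had a log2 fold change of 0.86 in Itga8-Cre against Myh11-Cre mice (edgeR adjusted p = 0.521). The 8 natural killer genes tested were split, with 5 above 0 and 3 below both in Itga8-Cre against Wild Type and in Itga8-Cre against Myh11-Cre. Their median was 0.38 in Itga8-Cre against Wild Type, and 0.10 without Itga8-Cre 3. In Itga8-Cre against Myh11-Cre it was 0.12 with and without Itga8-Cre 3. Cell cycle genes (15 genes) summed to 134, 209 and 579 CPM in Itga8-Cre mice, 445, 278 and 129 CPM in Myh11-Cre mice and 149, 189 and 179.0 CPM in Wild Type mice, highest in Itga8-Cre 3. The part of these lists in the levels of the 9 genes was not tested.

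T lineage transcription factors gave a mixed layout. Of 13, 11 were above 0 in Itga8-Cre against Wild Type (median 0.45), 5 in Myh11-Cre against Wild Type (median -0.20) and 12 in Itga8-Cre against Myh11-Cre (median 0.55), with 0 called by edgeR. Without Itga8-Cre 3 the median against Wild Type was 0.18 and that against Myh11-Cre 0.27. Foxp3, the factor of regulatory T cells, had 2.06, 4.09 and 2.24 CPM in Itga8-Cre mice, 1.29, 0.948 and 1.38 CPM in Myh11-Cre mice and 2.49, 0.952 and 1.90 CPM in Wild Type mice. Its 3 Itga8-Cre mice lay above the 3 Myh11-Cre mice (log2 fold change 1.21 ± 0.41 SE, edgeR adjusted p = 0.521). Recirculating T cell markers (5 genes) summed to 233, 305 and 257.5 CPM in Itga8-Cre mice, 196, 194 and 239 CPM in Myh11-Cre mice and 233, 174 and 240.5 CPM in Wild Type mice. Of these sums S1pr1 and Klf2, which endothelium also expresses strongly, made up 44.4% to 70.8%, so the list does not read T cells alone.

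**Figure D4:**
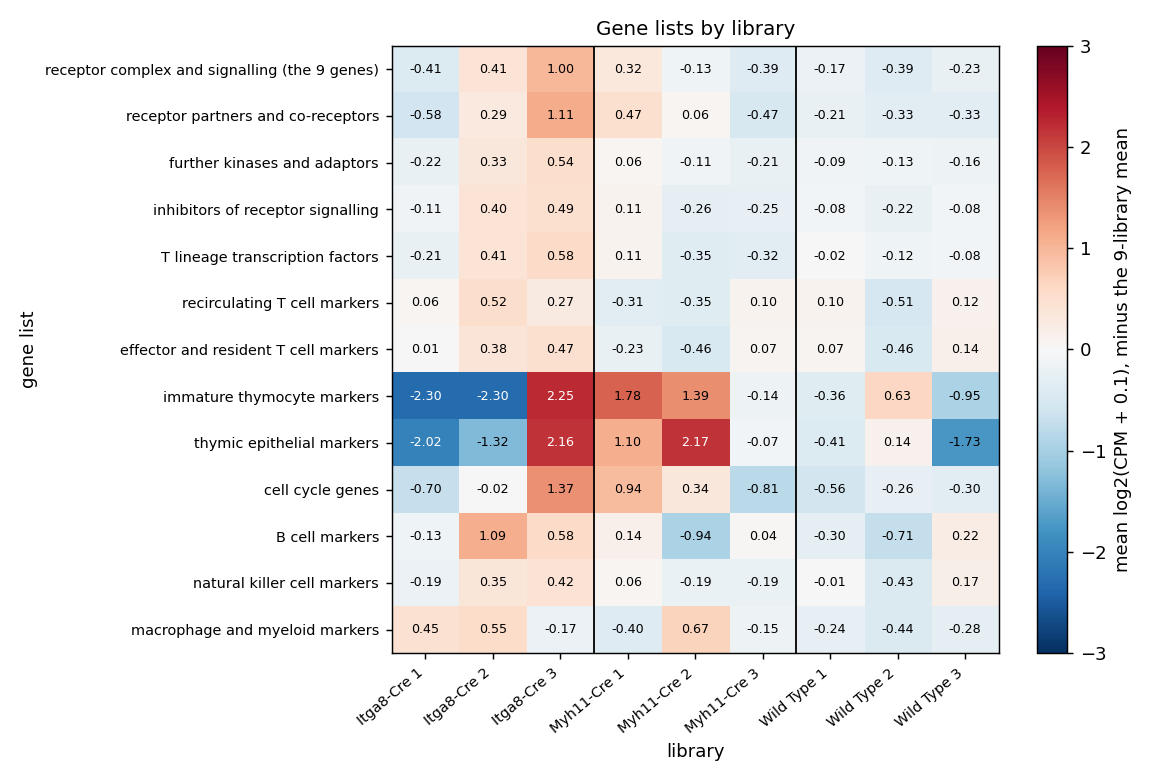
Mean log2(CPM + 0.1) of each gene list in each library, minus the mean of the 9 libraries, as colour, with libraries in columns (Itga8-Cre left, Wild Type right) and lists in rows. Within Itga8-Cre, immature thymocyte markers lie far below the mean in mice 1 and 2 and far above it in mouse 3 (76.3, 61.8 and 919.8 CPM summed), a wider span than that of the 9 genes (123, 219 and 350.0 CPM summed).

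Genes with the profile most like that of the 9, by Pearson r of log2(CPM + 0.1) with their mean standardized level over the 9 libraries among 14479 genes, were Ptpn7, Topbp1, Parvg, Smc4, Def6, Top2b, Cenpu, Cd27, Mms22l and Rfc3, at r of 0.97 to 0.99. These are a description of 9 points that share depth and library. Leaving out Itga8-Cre 3, Ptpn7 (0.99), Topbp1 (0.98), Smc4 (0.97), Top2b (0.96), Parvg (0.96) and Def6 (0.96) were again among the 10, beside Il17ra, Hsp90b1, Lta4h and Cdca7l. Ptpn7 is a phosphatase of blood cells, Parvg an adhesion protein and Def6 a signalling protein of lymphocytes. Topbp1 and Smc4 act on replicating or condensing DNA, and Top2b is a DNA topoisomerase not confined to dividing cells. Among the 9 genes themselves, 7 had r of 0.92 to 0.99 with the mean they contribute to, Trac 0.84 and Cd2 0.68.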

How the data were processed

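The authors deposited raw counts of reads per gene, and these whole numbers were used for every value. Per the labels' protocols, polyadenylated RNA of flash-frozen aortae was made into TruSeq Stranded libraries and read as single 75 nt reads. The submitters' processing notes name the build GRCm38.p6 and, without their role, STAR 2.7.0f, fastp 0.20.0, featureCounts, Subread 1.6.4, DESeq2 and Salmon 0.13.1. No source used here states the annotation release or the strand setting of the counting. A second deposited table of normalized counts was not used here.

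The main test was edgeR 4.0.16 under R 4.3.3, with filterByExpr by group, TMM factors, group means over all 9 libraries, robust quasi-likelihood F tests, and Benjamini-Hochberg adjustment over 19412 genes at a threshold of 0.05. The standard error of a log2 fold change is its size over the square root of F. The common biological coefficient of variation was 0.294, and mt-Rnr2 took 12.3% to 18.2% of counts. Libraries of 1 genotype differed by far more than sampling noise (chi-square per degree of freedom of 30.8 or more). The labels number mice, so replicates are mice.

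DESeq2 1.42.0, limma 3.58.1 (voom), other scalings and filters, 2-group fits, mouse number as a block and leaving out each library were run as alternatives. Leaving out the 3 libraries with the most Rag1, Rag1 as a covariate, leaving out mice for ratios, and gene lists without Itga8-Cre 3 were added after the data were seen. Ratios and the relation to Rag1 were tested by exact two-sided permutation. Exon lengths and positions came from GENCODE M21 (GRCm38) and promoter windows from RefSeq (GRCm38.p6), with both strands searched for motifs and overlapping matches counted separately.

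The 9 genes and the 20 other lists were chosen with earlier results of these data known. Genes named beside the 9 are, by rule, up to 3 genes of each list with the smallest p in each comparison, a fixed set of defining markers, and the 10 genes most alike in profile. Values of a list cover all of its genes that the table holds, and 2 of the 17 receptor partners, Trgc1 and Trgc2, were not analysed here.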

Additional observations from a re-analysis of the deposited data

How the results depend on the processing

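The 9 genes in 3 comparisons gave 540 values under 20 alternatives each. Of these, 516 kept direction and side of the threshold, 24 turned sign and 0 passed the threshold, and the lowest edgeR, DESeq2 or limma adjusted p was 0.148. The number of the 9 genes called was 0 under every alternative run.

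Over all genes, edgeR called 0 in each comparison. DESeq2 called 30 in Itga8-Cre against Wild Type, 828 in Myh11-Cre against Wild Type and 19 in Itga8-Cre against Myh11-Cre. Library totals alone gave 1 call in Myh11-Cre against Wild Type and 1 in Itga8-Cre against Myh11-Cre, and no filter gave 1 in Myh11-Cre against Wild Type. Without the 3 libraries with the most Rag1 there were 20 calls in Myh11-Cre against Wild Type and 33 in Itga8-Cre against Myh11-Cre. That fit has 1 Myh11-Cre, 2 Itga8-Cre and 3 Wild Type mice, so its Myh11-Cre values are those of Myh11-Cre 3 alone, with the spread taken from the Itga8-Cre and Wild Type mice. The cause was not tested.

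Leaving out 1 library at a time, the median log2 fold change of the 9 genes ran from 0.25 to 1.01 in Itga8-Cre against Wild Type, from 0.12 to 0.51 in Myh11-Cre against Wild Type and from 0.03 to 0.80 in Itga8-Cre against Myh11-Cre. The median of Myh11-Cre against Wild Type was -0.17 without the 3 libraries with the most Rag1, with 1 Myh11-Cre mouse left.

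In Myh11-Cre against Wild Type, Cd3e turned to -0.0106 with upper quartile factors, -0.10 with library totals alone, -0.006 with limma voom, -0.16 with Rag1 as a covariate and -0.45 without the 3 libraries, and ran from -0.21 to 0.23 when 1 library was left out. Without the 3 libraries, and so for 1 Myh11-Cre mouse, Cd3d had -0.25, Cd3g -0.0578, Cd247 -0.33, Lck -0.17 and Lat -0.11. Leaving out 1 library gave Cd3d -0.0267 to 0.51, Zap70 -0.11 to 0.0524 and Cd2 -0.29 to 0.18. In Itga8-Cre against Myh11-Cre it gave Cd3e -0.0391 to 0.68, Cd247 -0.39 to 0.62, Lck -0.32 to 0.80 and Lat -0.20 to 0.63. The 5 ratios without overlap kept their sign, at 0.19 to 0.56 (Cd3g), 0.30 to 0.44 (Lck) and 0.15 to 0.38 (Lat) on the log2 scale.

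Mouse numbers were not taken as pairs. Deviations from the group means correlated above 0.1 in 6 of the 9 pairs with equal numbers, with 4 of 9 libraries closest to their own number in both other groups, and mouse number as a replicate block gave 0 calls among the 9 genes and 1 call over all genes, in Myh11-Cre against Wild Type. Each of the 9 genes had 288 or more counts in every library, and the spread between mice of a genotype, pooled over the 3 genotypes, was 0.46 on the log2 scale. The genotypes were unlike in spread. Mean log2(CPM + 0.1) of the 9 genes was 3.69, 4.50 and 5.09 in Itga8-Cre mice, 4.41, 3.96 and 3.70 in Myh11-Cre mice and 3.92, 3.70 and 3.86 in Wild Type mice.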
